A study of Mus musculus with 2 samples.

Results

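The 8 genes described here are Hba-a1, Hba-a2, Hbb-bs and Hbb-bt, which encode the adult hemoglobin chains, Scgb1a1 and Sftpc of the lung epithelium, Igkc of B cells and Cpa3 of mast cells. They are 8 of the 32285 genes in the files, and all 8 were found in both libraries, among 18475 genes with a UMI in WT and 18683 in Pac1-/-. They were selected on measured values: earlier results of these same libraries had shown these genes, known for other cells, in the lung ILC2 preparations and, for most of them, in barcodes with few detected genes. Their levels and their spread over classes of detected genes are therefore given as a description.

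The study compared mice with and without PAC1, the phosphatase encoded by Dusp2, and the libraries were made from lung ILC2s, sorted as live Lineage- cells with CD90.2, ST2 and Sca-1 on their surface. There was 1 WT library and 1 Pac1-/- library, each from the pooled cells of several mice of that genotype, with 13000 cells loaded per library. Treatment and age of the mice behind these libraries are not given in the labels, and the barcodes carry no mark of the mouse. For age, the paper gives a range in weeks that covers the mice of all its animal experiments. With 1 library per genotype a difference between genotypes has no replicate check, so no p-value or SE is given, and genotype, pool of mice and library preparation cannot be told apart. Intervals are 95% intervals (exact Poisson for levels, exact Clopper-Pearson for shares), and they cover counting error only.

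Red blood cells fill themselves with hemoglobin, a tetramer of alpha and beta chains, and mature mouse red cells keep some globin mRNA after they have lost the nucleus. Scgb1a1 encodes the secretoglobin that airway club cells release, and Sftpc encodes surfactant protein C of alveolar type 2 cells. Igkc encodes the constant region of the kappa light chain of antibodies, and Cpa3 a carboxypeptidase of mast cell and basophil granules. In a droplet library the RNA of such cells can reach the counts in a droplet that captured the cell or its debris, in a droplet with that cell and an ILC2 together, or as RNA free in the suspension, which enters droplets without regard to the cell in them.

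The coding parts of each hemoglobin pair are near copies, and this bears on how UMIs are assigned to the genes of a pair. On GRCm38, in the GENCODE annotation, Hba-a1 (ENSMUSG00000069919) lies at chr11:32283511-32284465 and Hba-a2 (ENSMUSG00000069917) at chr11:32296489-32297298, both on the plus strand. Hbb-bs (ENSMUSG00000052305) lies at chr7:103826534-103828096 and Hbb-bt (ENSMUSG00000073940) at chr7:103812524-103813996, both on the minus strand. The coding sequences of Hba-a1 and Hba-a2, 429 bases each, differ at 1 base, C381T (Hba-a1 first, counted from the A of the start codon), and those of Hbb-bs and Hbb-bt, 444 bases each, at 1 base, C417T (Hbb-bs first). The stretches around these bases are shown because they are the only coding difference by which a read can tell the copies apart, with the base that differs in capitals (coding bases 349 to 408 of the alpha genes and 385 to 444 of the beta genes):
Hba-a1: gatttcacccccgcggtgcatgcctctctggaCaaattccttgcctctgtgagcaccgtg
Hba-a2: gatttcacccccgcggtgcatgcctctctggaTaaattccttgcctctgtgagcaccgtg
Hbb-bs: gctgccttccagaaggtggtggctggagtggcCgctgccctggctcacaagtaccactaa
Hbb-bt: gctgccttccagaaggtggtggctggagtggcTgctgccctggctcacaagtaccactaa

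Outside the coding part the pairs differ in unlike ways. The 3′ UTRs of Hba-a1 (74 bases) and Hba-a2 (90 bases) are equal at all 74 aligned bases, whereas those of Hbb-bs and Hbb-bt differ at 36 of 129 aligned bases. The annotated 5′ UTR of Hba-a1 is 196 bases long and that of Hba-a2 35. A 3′ read of an alpha chain transcript thus has little by which it can be assigned to one copy, and the split of UMIs between Hba-a1 and Hba-a2 is uncertain. No other gene of the annotation overlaps the hemoglobin genes, Scgb1a1 (chr19:9083636-9087958, minus strand) or Sftpc (chr14:70520949-70524081, minus strand). Igkc (chr6:70726435-70726966, plus strand) overlaps the lincRNA Gm30211 on the same strand, and Cpa3 (chr3:20215620-20242181, minus strand) overlaps the microRNA gene Mir7007.

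The WT library held 10866 barcodes and 56182065 UMIs (median 3579.5 per barcode) and the Pac1-/- library 9495 barcodes and 60283285 UMIs (median 4639), with at least 500 UMIs in every barcode. Dusp2 had 1436 UMIs in WT and 5 in Pac1-/-, as the labels have it. Barcodes were placed in 4 classes of detected genes. Under 300 genes there were 19 WT and 59 Pac1-/- barcodes, from 300 to under 500 genes 2384 and 2051, from 500 to under 1000 genes 1189 and 893, and at 1000 genes and more 7274 and 6492. The last class held 94.4% of WT and 96.0% of Pac1-/- UMIs. Of the ILC2 markers, Gata3 was found in 8488 WT and 7359 Pac1-/- barcodes and Il1rl1 (ST2) in 8944 and 7664. The libraries shared 29 barcode sequences, in which no member had more than 5 UMIs.

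Most UMIs of 7 of the 8 genes sat in very few barcodes. A barcode is called rich in a gene when it holds at least 10 UMIs of it. Rich barcodes numbered from 2 to 11 per gene in WT and from 2 to 49 in Pac1-/- for these 7 genes, and they held from 70.2% (Hba-a1, WT) to 99.0% (Hbb-bs, Pac1-/-) of the gene's UMIs. The genes are called by their names and not free RNA, since empty droplets were not analysed here and the part of free RNA in these UMIs was not tested. Cpa3 was the exception, with no rich barcode in WT and 5 in Pac1-/- that held 6.81% of its UMIs.

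The spread was set against the number of barcodes expected if a gene made up the same share of the UMIs of every barcode. The observed number was under 0.5 of the expected number for 7 of the 8 genes in each library. Among all genes with at least 50 UMIs, 0.562% in WT and 0.891% in Pac1-/- were under 0.5, with medians of 0.955 and 0.958. Hbb-bt had the lowest ratio in both libraries, 0.0369 in WT and 0.0188 in Pac1-/-. The ratios of Hba-a2 were 0.0752 and 0.0476, those of Hbb-bs 0.0568 and 0.0593, and those of Hba-a1 0.313 and 0.238. Scgb1a1 stood at 0.20 and 0.25, Sftpc at 0.157 and 0.0669, Igkc at 0.165 and 0.116, and Cpa3 at 0.728 and 0.659. When each gene's own rich barcodes were left out, none of the 8 genes was under 0.5 in either library. This setting removes the concentrated counts themselves, so a rise of the ratio is built into it. It also left Sftpc (17 UMIs in WT and 46 in Pac1-/-) and Hbb-bt in WT (41) under 50 UMIs.

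**Figure D1:**
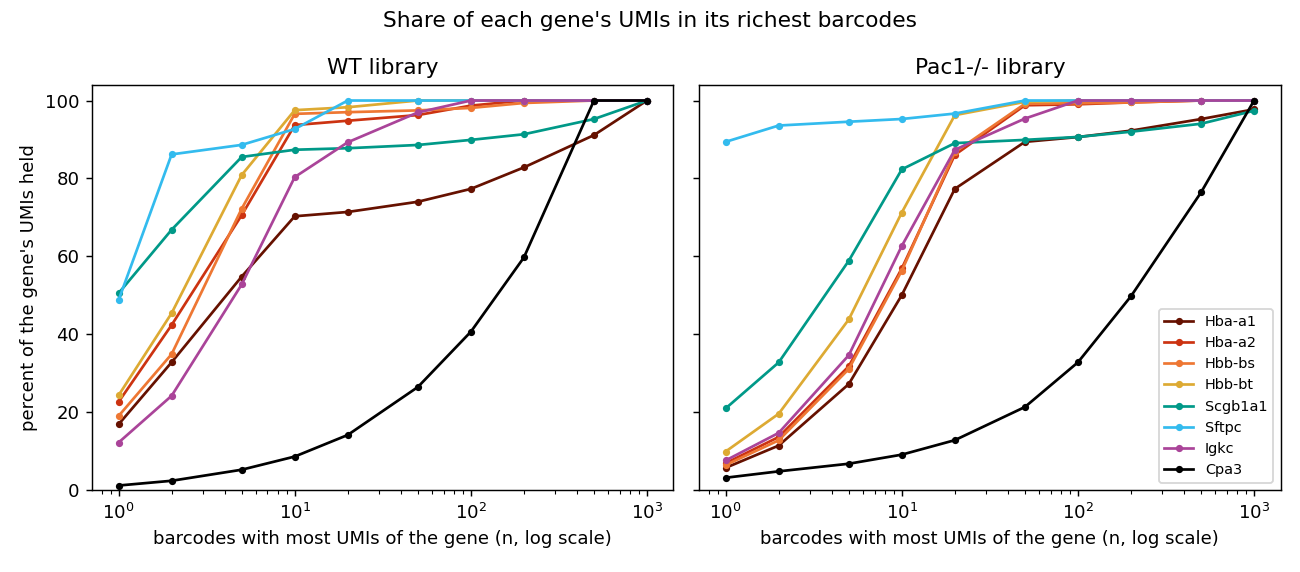
Percent of each gene's UMIs (vertical axis) held by its richest barcodes (horizontal axis, number of barcodes, log scale), for WT on the left and Pac1-/- on the right. All genes but Cpa3 climb within the first 50 barcodes, Sftpc in Pac1-/- starts at 89.4% with 1 barcode, and the curves of Hba-a1 and Scgb1a1 flatten and then rise slowly over barcodes with few UMIs.

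Among the hemoglobin genes, Hba-a1 was found in the most barcodes, few of them with many UMIs and many with 1. Hba-a1 had 3630 UMIs in 822 WT barcodes (7.56%) and 28984 UMIs in 1655 Pac1-/- barcodes (17.4%). Its richest barcodes held 614, 578 and 302 UMIs in WT and 1670, 1653 and 1564 in Pac1-/-. Of the barcodes with Hba-a1, 621 of 822 in WT and 931 of 1655 in Pac1-/- held 1 UMI of it. Hba-a2 had 2064 UMIs in WT and 20726 in Pac1-/-, found in 1.17% and 3.16% of barcodes, so that Hba-a1 was found in several times as many barcodes as its near copy at less than 2 times its UMIs.

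The beta chain genes, like Hba-a2 (93.5% in WT and 98.6% in Pac1-/-), had nearly all of their UMIs in rich barcodes. Hbb-bs had 7892 UMIs in WT, 96.5% of them in 9 rich barcodes, and 52658 UMIs in Pac1-/-, 99.0% of them in 34. It was found in 250 and 464 barcodes in all, 224 and 384 of them with 1 UMI of it. Hbb-bt had 1334 UMIs in WT and 7949 in Pac1-/-, with 96.9% and 98.9% in 7 and 26 rich barcodes. Outside these, Hbb-bt was left with 41 UMIs in WT and 84 in Pac1-/-.

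Most barcodes in which hemoglobin took a large share held few other genes. Summed over the 4 genes, hemoglobin made up at least 10% of the UMIs of 7 WT and 30 Pac1-/- barcodes, and at least 50% of those of 6 and 26. The 7 WT barcodes had a median of 1814 UMIs but only 81 detected genes, and the 30 Pac1-/- barcodes a median of 3911 UMIs and 125.5 genes. Mitochondrial genes gave a median of 0.0981% and 0.0848% of their UMIs, against 2.36% and 3.09% in barcodes rich in none of the 8 genes. Mature red cells are known to have lost their mitochondria.

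Other erythroid transcripts were found in these barcodes, and ILC2 markers mostly were not. Of the 15 erythroid genes in the files, 6 of the 7 WT and 15 of the 30 Pac1-/- barcodes had at least 3, whereas at least 3 of 12 ILC2 markers were found in 1 of 7 and 5 of 30. Alas2, the first enzyme of erythroid heme synthesis, had 49 UMIs in WT, 48 of them in the 9 barcodes rich in Hbb-bs, and 178 in Pac1-/-, 176 of them in 25 of the 34. The erythroid genes with most UMIs were spread instead. Bpgm (988 and 1100 UMIs), Fech (1004 and 1123) and Blvrb (612 and 1083) stood at 0.86 to 0.99 of their expected barcodes and were within 2-fold between libraries. In all, 0 of 3 erythroid genes with 50 UMIs in WT and 2 of 6 in Pac1-/- were under 0.5 of the expected barcodes. Of neutrophil genes, none of 6 was found in WT, and S100a9 had 1 UMI in Pac1-/-.

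**Figure D2:**
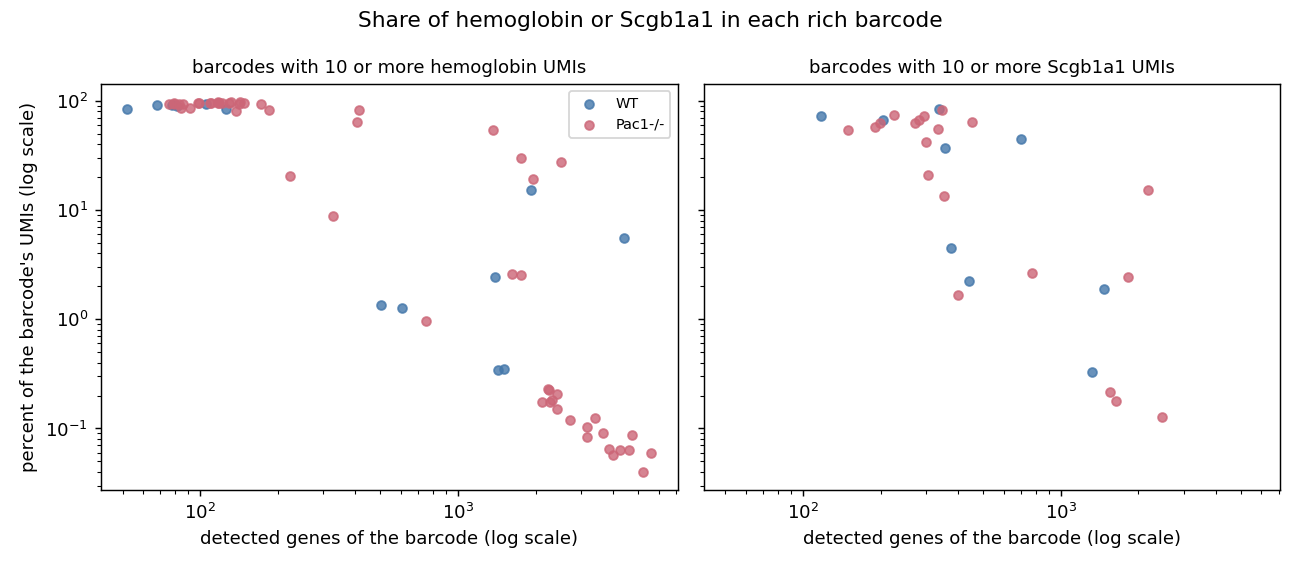
Detected genes (horizontal axis, log scale) and percent of the barcode's UMIs taken by hemoglobin (left) or Scgb1a1 (right; vertical axes, log scale) in each barcode with 10 or more UMIs of them, WT in blue and Pac1-/- in red. Most barcodes with a high share have under 500 genes, and the Pac1-/- library has a further group of hemoglobin barcodes at the lower right, with many genes and a share under 1%.

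Rich hemoglobin barcodes and the others did not hold the 4 genes in 1 ratio. Shares here are of summed 3′ UMIs, which are not divided by transcript length. In the 13 WT barcodes with at least 10 hemoglobin UMIs, Hba-a1 made up 19.0% of hemoglobin (interval 18.3% to 19.7%) and Hbb-bs 56.8%. In the 53 such Pac1-/- barcodes the shares were 24.4% (24.1% to 24.6%) and 49.0%. In barcodes with 1 to 9 hemoglobin UMIs the order turned round, with Hba-a1 at 72.8% (70.4% to 75.0%) and Hbb-bs at 16.9% in WT, and at 78.8% (77.5% to 80.1%) and 12.9% in Pac1-/-.

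That turn lay in the barcodes with many genes. Among barcodes with 1 to 9 hemoglobin UMIs and 300 to under 500 genes, Hba-a1 made up 30.0% (23.9% to 36.5%) of 217 UMIs in WT and 29.0% (24.1% to 34.3%) of 324 in Pac1-/-, and Hbb-bs 53.9% and 55.6%. These shares were nearer to those of the rich barcodes, although the Hba-a1 interval in WT lay above the 19.0% there. From 500 to under 1000 genes Hba-a1 stood at 36.5% and 41.3%. At 1000 genes and more it stood at 82.9% (80.6% to 85.0%) of 1185 UMIs in WT and 84.9% (83.7% to 86.1%) of 3421 in Pac1-/-, while Hbb-bs was down to 8.69% and 7.83%. Hba-a1 was the only hemoglobin gene in 664 of 849 such WT barcodes (78.2%) and 1278 of 1744 such Pac1-/- barcodes (73.3%), against 29.6% and 28.6% from 300 to under 500 genes. The share of Hba-a2, as counted, fell instead. It was 14.4% in rich WT and 19.2% in rich Pac1-/- barcodes and 7.93% and 6.34% at 1000 genes and more. The sum of both alpha genes, which does not rest on the split between the copies, moved with Hba-a1. It was 33.5% of hemoglobin UMIs in the rich WT barcodes and 43.6% in the rich Pac1-/- barcodes, 39.2% and 40.4% in the others from 300 to under 500 genes, and 90.8% (89.0% to 92.4%) and 91.3% (90.3% to 92.2%) at 1000 genes and more.

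**Figure D3:**
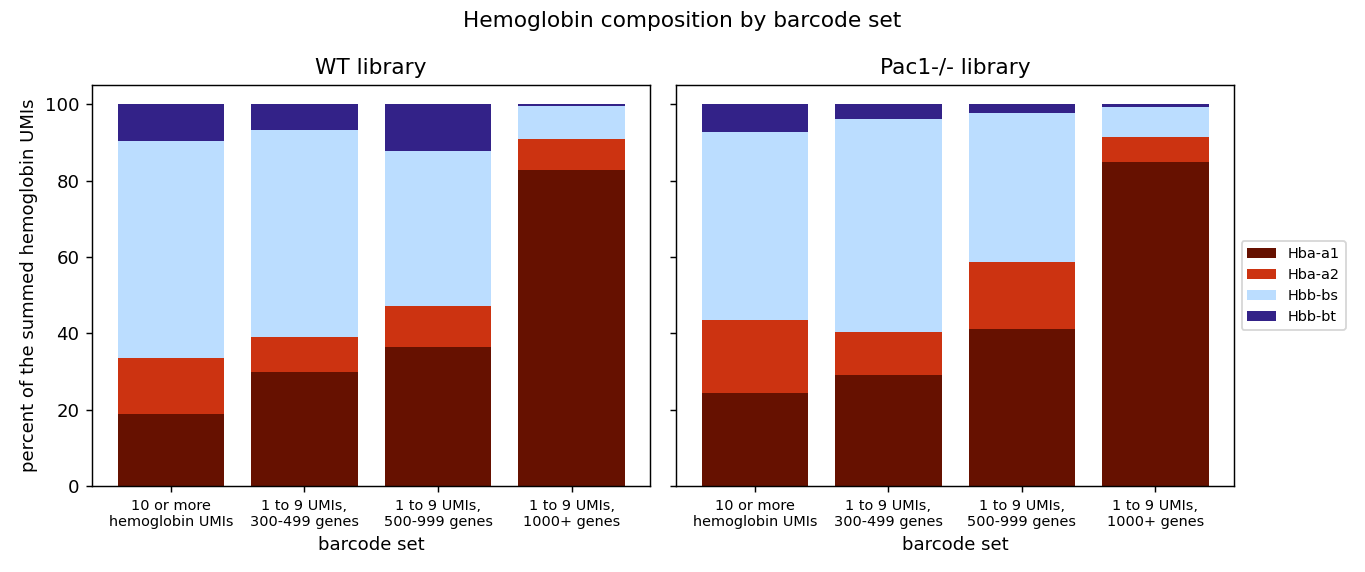
Share of each hemoglobin gene in the summed hemoglobin UMIs (vertical axis, percent) in barcodes with 10 or more hemoglobin UMIs and, by class of detected genes, in barcodes with 1 to 9 (horizontal axis), for each library. The beta gene Hbb-bs leads in the rich barcodes and in the class from 300 to under 500 genes, and Hba-a1 takes over 80% at 1000 genes and more in both libraries.

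In the Pac1-/- library some barcodes with many genes were rich in Hba-a1 alone. At 1000 genes and more, 22 Pac1-/- barcodes had at least 10 Hba-a1 UMIs, and they fell into groups that were separated after their values were seen. In 16 of them Hba-a1 ran from 10 to 18 UMIs with 0 or 1 UMI of Hbb-bs, none of Hbb-bt and at most 5 of Hba-a2. These 16 had a median of 12670 UMIs, 3289 genes and 10 of the 12 ILC2 markers. They were deep, beside medians of 5834 UMIs and 2018 genes over all Pac1-/- barcodes of that class. Markers were not compared at equal depth. In the other 6, Hba-a1 ran from 11 to 1176 UMIs beside 59 to 2438 of Hbb-bs. In WT, all 3 barcodes of this kind held at least 50 Hbb-bs UMIs.

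Hba-a1 and Hbb-bs UMIs per barcode also changed differently with the number of genes once their rich barcodes were set aside. Hba-a1 UMIs per barcode in WT were 0.0273 (0.0210 to 0.0348) from 300 to under 500 genes, 0.0244 from 500 to under 1000 and 0.136 (0.128 to 0.145) at 1000 and more. In Pac1-/- they were 0.0459, 0.0582 and 0.453 (0.437 to 0.470). Hbb-bs UMIs per barcode went the other way, from 0.0491 (0.0406 to 0.0588) through 0.0353 to 0.0164 (0.0136 to 0.0196) in WT and from 0.0879 through 0.0549 to 0.0416 in Pac1-/-. At 1000 genes and more Hba-a1 was thus higher per barcode than from 300 to under 500 genes, and Hbb-bs lower. The CPM of both genes were lower there, going from 44.2 through 17.7 to 18.6 for Hba-a1 and from 79.5 through 25.6 to 2.24 for Hbb-bs in WT, and from 75.7 through 49.2 to 50.9 and from 145 through 46.5 to 4.67 in Pac1-/-.

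Within the barcodes of 1000 genes and more, barcodes were ordered by depth and cut into 4 groups of equal size. In WT, Hba-a1 had 0.0528, 0.107, 0.127 and 0.258 UMIs per barcode from the shallowest group (median 3088.5 UMIs) to the deepest (median 13089), and its CPM (UMIs per 1e6 UMIs of the same barcodes) were 17.4, 26.5, 20.6 and 16.1. In Pac1-/- it had 0.140, 0.328, 0.525 and 0.820 UMIs per barcode and 37.6, 63.5, 70.5 and 42.6 CPM. Hba-a1 UMIs per barcode thus grew with depth in both libraries, as did those of the ILC2 gene Gata3, which went from 2.82 to 20.9 in WT. Any gene that keeps its share of UMIs grows per barcode in this way. The CPM of Gata3 rose throughout in WT, from 928 through 1045 and 1211 to 1311, unlike those of Hba-a1. Hbb-bs per barcode did not fall with depth within these barcodes, while its CPM did. It had 0.00935 (0.00545 to 0.0150), 0.0220, 0.0176 and 0.0165 (0.0111 to 0.0236) UMIs per barcode in WT, with overlapping intervals of the first and last group, and rose from 0.0277 (0.0202 to 0.0371) through 0.0308 and 0.0395 to 0.0685 (0.0563 to 0.0825) in Pac1-/-. Its CPM were 3.07 (1.79 to 4.92), 5.47, 2.87 and 1.03 (0.70 to 1.48) in WT and 7.44 (5.42 to 9.95), 5.96, 5.29 and 3.55 (2.92 to 4.27) in Pac1-/-, lower in the deepest group than in the shallowest in both libraries.

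Scgb1a1 was also concentrated in few barcodes, and its UMIs outside them were spread in another way than those of Hba-a1. It had 7681 UMIs in 865 WT barcodes and 14938 in 1390 Pac1-/- barcodes, which is 7.96% and 14.6% of barcodes. The richest WT barcode held 3883 of them, 50.6% of the library's Scgb1a1, and in this barcode Scgb1a1 was 84.7% of 4587 UMIs. The richest Pac1-/- barcode held 3137, or 82.3% of its UMIs. Rich barcodes numbered 9 and 20, had a median of 375 and 340.5 genes, and held 87.3% and 89.1% of the Scgb1a1 UMIs.

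Some other club cell genes had most of their UMIs in the barcodes rich in Scgb1a1, and others did not. Scgb3a2, another secretoglobin of the airway, had 108 UMIs in WT and 142 in Pac1-/-, of which 88.0% and 85.9% lay in these barcodes. Cbr2 had 57.9% of 38 and 75.0% of 92 UMIs there, and Aldh1a1 8.11% of 37 and 15.5% of 84. At least 3 of 9 club cell genes were found in 5 of 9 rich WT and 9 of 20 rich Pac1-/- barcodes. At least 3 ILC2 markers were found in 3 and 6 of them, and 1 barcode in each library had both. At least 3 of 10 alveolar type 2 genes were found in 2 of 9 and 6 of 20 of these barcodes. Among club cell genes with at least 50 UMIs, 1 of 1 in WT and 3 of 3 in Pac1-/- were under 0.5 of the expected barcodes.

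Outside the rich barcodes, among the classes of 300 genes and more, Scgb1a1 UMIs per barcode were highest from 300 to under 500 genes and varied less between classes than its CPM. Under 300 genes few barcodes were left, with no Scgb1a1 UMI in WT, which allows up to 0.217 per barcode, and 0.0385 per barcode (0.00466 to 0.139) in Pac1-/-. In WT it had 0.114 UMIs per barcode (0.101 to 0.129) from 300 to under 500 genes, 0.0825 (0.0670 to 0.101) from 500 to under 1000 and 0.0831 (0.0766 to 0.0900) at 1000 and more, while its CPM fell from 186 through 59.9 to 11.4. In Pac1-/- it had 0.22 (0.20 to 0.24), 0.172 and 0.158 (0.149 to 0.168) UMIs per barcode, at 364, 145 and 17.8 CPM. Over these depth groups at 1000 genes and more, WT had 0.0836, 0.0633, 0.0765 and 0.109 UMIs per barcode, with intervals of the first and last group that overlap, and Pac1-/- 0.126, 0.105, 0.158 and 0.245, with intervals that do not. With all barcodes of a class counted, rich ones included, and each thinned to 500 UMIs, Scgb1a1 was found in 8.47%, 2.86% and 0.811% of WT barcodes over these classes and in 15.0%, 6.38% and 1.09% of Pac1-/- barcodes.

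**Figure D4:**
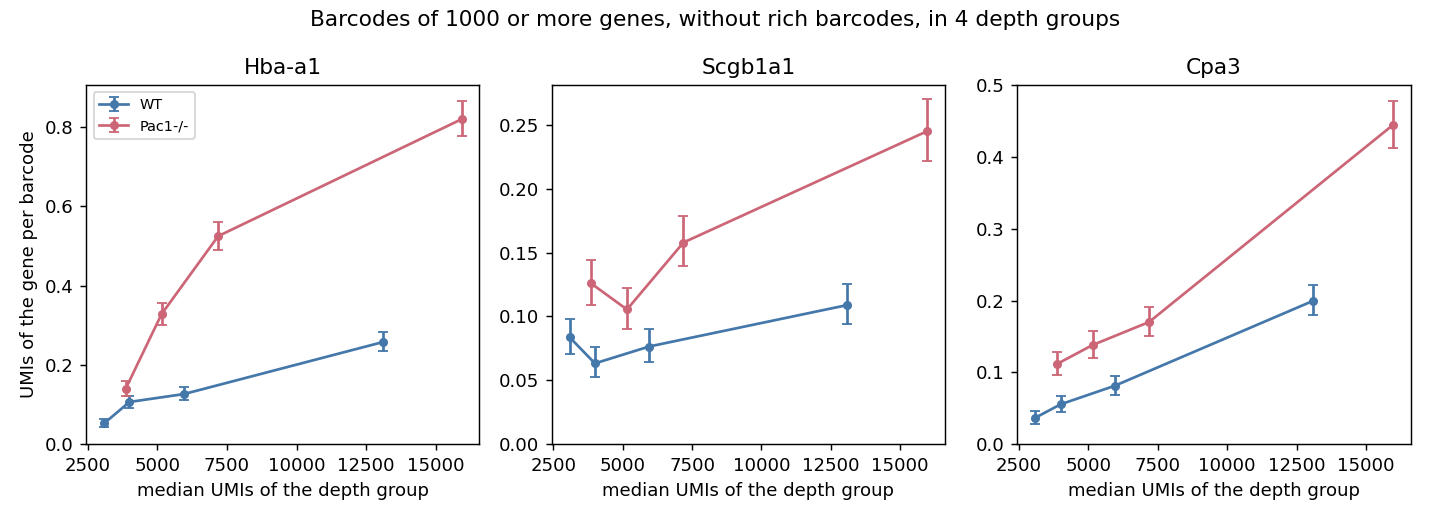
UMIs per barcode (vertical axis) of Hba-a1, Scgb1a1 and Cpa3 in 4 depth groups (horizontal axis, median UMIs of the group) of barcodes with 1000 or more genes, rich barcodes left out; bars are 95% Poisson intervals. Hba-a1 and Cpa3 climb with depth in both libraries, while Scgb1a1 goes from 0.0836 in the shallowest to 0.109 in the deepest group in WT, with 0.0633 and 0.0765 between, and from 0.126 to 0.245 in Pac1-/-.

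Sftpc rested on 2 barcodes in each library. Its 123 WT UMIs were 60 in one barcode, 46 in another and 1 in each of 17 others. Its 717 Pac1-/- UMIs were 641 in a barcode of 659 genes, 30 in a second and at most 3 in any other. In the barcode with 641, Sftpc was 26.3% of the UMIs and was followed by 177 UMIs of Lyz2, a lysozyme of macrophages and alveolar type 2 cells, and 133 of Sftpa1, surfactant protein A. The second Pac1-/- barcode held 81 Scgb1a1 UMIs beside its 30 of Sftpc and was the only overlap of barcodes rich in Sftpc with those rich in another of the 8 genes.

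Other alveolar type 2 genes were mixed. Both WT barcodes and 1 of the 2 Pac1-/- barcodes had at least 3 of 10 such genes, and none had 3 ILC2 markers. Sftpa1 had 14 of its 36 UMIs in WT and 134 of its 196 in Pac1-/- in the barcodes rich in Sftpc. Napsa (55 and 234 UMIs) and Abca3 (304 and 359) were found at 0.94 to 0.99 of their expected barcodes, and at most 2.56% of Napsa UMIs and none of Abca3 lay in the rich barcodes. Under 0.5 of the expected barcodes were 0 of 2 alveolar type 2 genes with 50 UMIs in WT and 2 of 4 in Pac1-/-.

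Igkc differed from the hemoglobin and epithelial genes in the kind of barcode that held it. It had 392 UMIs in 62 WT barcodes and 863 in 90 Pac1-/- barcodes (0.571% and 0.948%), and 95.7% and 96.9% of them lay in barcodes of 1000 genes and more. These shares were near those of all UMIs in that class, 94.4% and 96.0%. All 11 rich WT and all 20 rich Pac1-/- barcodes were of that class, with medians of 2190 and 1741.5 genes. The richest held 48 and 66 Igkc UMIs, 1.06% and 1.42% of their UMIs. From 500 to under 1000 genes in WT, 0 of 1189 barcodes had a UMI, where the interval allows up to 0.310%.

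Several other B cell genes were found beside Igkc. At least 3 of 14 B and plasma cell genes were found in 8 of the 11 rich WT barcodes and 19 of the 20 rich Pac1-/- barcodes. Cd79a, a signalling chain of the B cell receptor, had 53 of its 88 UMIs in WT and 195 of its 242 in Pac1-/- there, and Ms4a1 (CD20) 28 of 32 and 59 of 64. Iglc2, a lambda light chain constant region, had 79.5% of 78 and 65.1% of 255 UMIs in barcodes rich in Igkc. Ighm, the mu heavy chain, was spread over 2075 WT and 2460 Pac1-/- barcodes at 0.91 of the expected number in both, and Cd79b stood at 0.74 and 0.67. Of B and plasma cell genes with 50 UMIs, 2 of 4 in WT and 5 of 8 in Pac1-/- were under 0.5.

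Of the barcodes rich in Igkc, 8 of 11 in WT and 9 of 20 in Pac1-/- carried at least 3 ILC2 markers, beside 92.5% and 89.1% of the barcodes rich in none of the 8 genes. At least 3 markers of each list were found in 5 of 11 rich WT and 8 of 20 rich Pac1-/- barcodes. Rich barcodes with 3 ILC2 markers had a median of 9237.5 UMIs in WT and 9860 in Pac1-/-, and those without 3258 and 4091. Doublets were not removed, and their part in this was not tested.

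Cpa3 was the gene spread most like an ordinary one. It had 740 UMIs in 498 WT barcodes (4.58%) and 1587 in 874 Pac1-/- barcodes (9.20%), and the highest counts in WT were 9, 9 and 8. Barcodes with Cpa3 carried a median of 9 ILC2 markers in WT and 10 in Pac1-/-, beside 7 in the barcodes rich in none of the 8 genes, and were deeper, with medians of 7360 against 3581 UMIs in WT and 8752 against 4639 in Pac1-/-. Over the depth groups its WT CPM were 12.1, 13.8, 13.3 and 12.5, while UMIs per barcode went from 0.0368 (0.0285 to 0.0468) to 0.20 (0.18 to 0.22). In Pac1-/- its CPM were 29.9, 26.7, 22.8 and 23.0. Within WT barcodes of 1000 genes and more, Cpa3 thus kept nearly the same share of UMIs over the depth groups, where Scgb1a1 fell from 27.5 to 6.82 CPM. Below that its share was not the same, with 28.5 CPM (20.6 to 38.6) from 300 to under 500 genes against 12.8 (11.9 to 13.8) at 1000 and more.

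The Pac1-/- library held in addition 5 barcodes rich in Cpa3, with 51, 26 and 11 UMIs in the highest. At least 3 of 13 mast cell and basophil genes were found in 3 of them, and at least 3 ILC2 markers in 4. Mcpt8, a protease of basophils, had 95 of its 105 Pac1-/- UMIs in 2 of these 5 barcodes. Kit, the stem cell factor receptor, was found in 6689 WT and 4584 Pac1-/- barcodes, with 0.172% of its Pac1-/- UMIs in the 5 barcodes. Hdc (514 and 286 UMIs) and Slc18a2 (1663 and 956) had log2 ratios of -0.95 and -0.90 and Kit -1.03, while Mcpt8 had 3.29, Gata2 1.55 and Cd200r3 0.94. Of the 6 genes of this list compared, 2 were at least 2-fold higher and 1 at least 2-fold lower in Pac1-/-, beside 3.73% and 3.27% of all genes compared. Among mast cell and basophil genes with 50 UMIs, 1 of 3 in WT and 1 of 5 in Pac1-/- were under 0.5 of the expected barcodes.

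With all barcodes counted, the hemoglobin and epithelial genes had higher ratios between the classes of detected genes than Igkc and Cpa3. CPM under 500 genes were at least 2 times those at 1000 genes and more for 7 of the 8 genes in WT and 6 of 8 in Pac1-/-, beside 3.29% and 3.63% of all genes. Hbb-bs stood at 4068 CPM against 33.6 in WT and at 34077 against 102 in Pac1-/-. Scgb1a1 stood at 3777 against 13.2 in WT and 8867 against 45.0 in Pac1-/-, and Sftpc at 72.4 against 0.264 and 30.7 against 0.536. In Pac1-/- 89.8% of Sftpc UMIs lay between these classes, from 500 to under 1000 genes, and 641 of those 644 in 1 barcode. Igkc had ratios of 1.61 and 1.01, and Cpa3 of 2.20, just past the 2-fold line, and 1.34. Without each gene's rich barcodes the order was another one. Ratios in WT and Pac1-/- were then 61.9 and 56.8 for Hbb-bt, 35.2 and 30.7 for Hbb-bs, and 16.1 and 18.8 for Scgb1a1. They were 12.3 and 10.3 for Igkc, 7.24 and 7.27 for Hba-a2, and 5.09 and 16.4 for Sftpc. Hba-a1 stood at 2.39 and 1.52 and Cpa3 at 2.20 and 1.45. For hemoglobin the direction depends on what orders the barcodes. With classes of the same size cut by UMIs instead of genes, the ratios of the 4 hemoglobin genes ran from 0.588 to 0.905 in WT and from 0.117 to 0.257 in Pac1-/-. The size of other ratios depended on it too. Scgb1a1 then stood at 4.82 in WT and 10.8 in Pac1-/-, against 286 and 197 with classes by genes. Sftpc stood at 257 against 274 in WT and at 2.71 against 57.2 in Pac1-/-. Barcodes with at least 10% hemoglobin had median UMIs of 1814 in WT and 3911 in Pac1-/-, at medians of 81 and 125.5 genes. From 300 to under 500 genes the medians over all barcodes were 596 and 578 UMIs. Which barcodes changed class was not tested.

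All 8 genes were higher in the Pac1-/- library, and 6 of them by at least 2-fold, beside 3.73% of the 12525 genes compared and a median log2 ratio of 0.19 over all genes. The levels of the hemoglobin genes were 64.6 CPM (62.5 to 66.7) in WT and 481 (475 to 486) in Pac1-/- for Hba-a1, 36.7 and 344 for Hba-a2, 140 and 874 for Hbb-bs, and 23.7 and 132 for Hbb-bt. Their log2 ratios were 2.90 (2.85 to 2.95), 3.23, 2.64 and 2.47. Sftpc stood at 2.19 and 11.9 CPM (log2 ratio 2.44, interval 2.16 to 2.73), though 641 of its 717 Pac1-/- UMIs came from 1 barcode. Igkc, at 6.98 and 14.3 CPM, was just above the 2-fold line (2.05-fold), and Cpa3, at 13.2 and 26.3, just below it (log2 ratio 0.999, interval 0.87 to 1.13). Scgb1a1 had 137 and 248 CPM (log2 ratio 0.86, 0.82 to 0.90). The size of the ratio depended on which barcodes were kept and how they were weighted. As the mean over barcodes of each gene's share, 7 of the 8 genes were at least 2-fold higher. The share of all genes past 2-fold is not given for that weighting. The log2 ratios were then 1.38 for Scgb1a1, past the 2-fold line, 1.39 for Sftpc, 1.71 for Hbb-bt and 0.92 for Cpa3. With barcodes of at least 500 genes and at most 10% mitochondrial UMIs, the log2 ratio of Sftpc was 5.40, since its 2 rich WT barcodes had under 500 genes, that of Scgb1a1 0.31 and those of the hemoglobin genes from 1.61 (Hbb-bs) to 2.23 (Hba-a2).

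The rich barcodes differed between the libraries in number for 7 of the 8 genes and, for most, in UMIs per barcode. Barcodes rich in Hba-a1 numbered 9 in WT and 49 in Pac1-/-, in Hba-a2 9 and 33, in Hbb-bs 9 and 34, in Hbb-bt 7 and 26, in Scgb1a1 9 and 20, in Igkc 11 and 20, in Cpa3 0 and 5 and in Sftpc 2 and 2. Their mean UMIs were 283 in WT and 529 in Pac1-/- for Hba-a1, 214 and 619 for Hba-a2, 846 and 1534 for Hbb-bs, 185 and 302.5 for Hbb-bt, 53 and 335.5 for Sftpc and 29.6 and 37.7 for Igkc, while Scgb1a1 had 745 and 665. Without each gene's own rich barcodes, all 8 genes were still higher in Pac1-/-, and 3 of 8 by at least 2-fold. The share of all genes past 2-fold is not given for this setting. The log2 ratios were then 1.42 (1.31 to 1.52) for Hba-a1, at 19.3 and 51.5 CPM, 1.01 (0.71 to 1.32) for Hba-a2 and 1.33 (0.50 to 2.23) for Sftpc. The intervals of Hba-a2 and Sftpc thus reached below the 2-fold line. The other ratios were 0.75 for Hbb-bs, 0.94 for Hbb-bt, 0.64 for Scgb1a1, 0.62 for Igkc and 0.90 for Cpa3. The libraries also differed in depth, with medians of 3579.5 and 4639 UMIs per barcode, and the part of depth in these ratios was not tested.

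**Figure D5:**
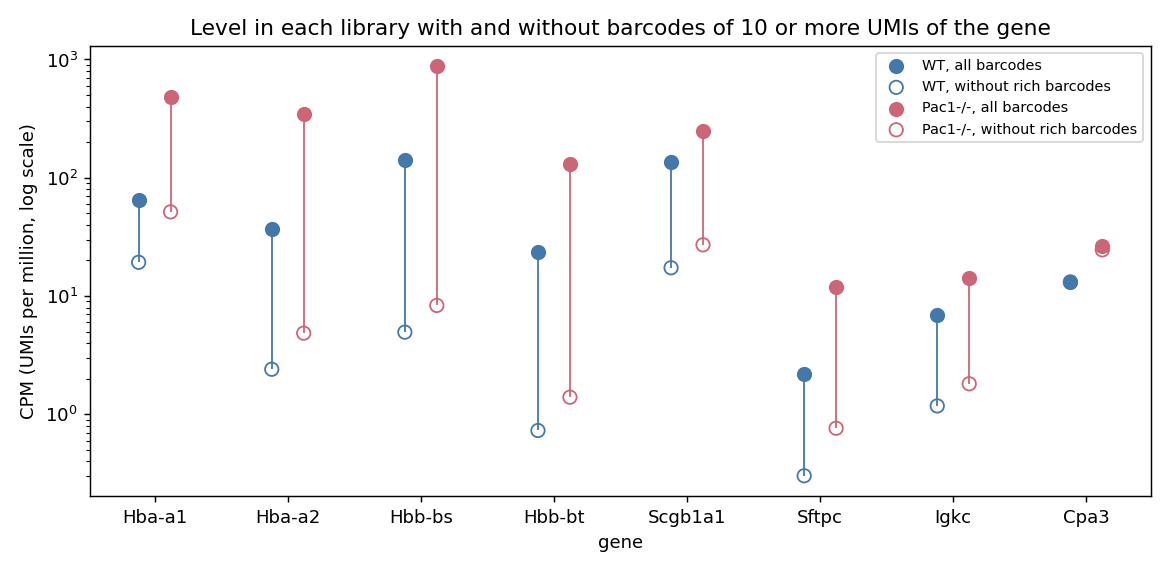
Level of each gene (vertical axis, CPM, log scale) in the WT (blue) and Pac1-/- (red) library over all barcodes (filled) and without barcodes holding 10 or more UMIs of that gene (open), 1 library per genotype. Every Pac1-/- point lies above its WT partner, the lines are long for the hemoglobin genes (Hbb-bs in Pac1-/- from 874 to 8.33 CPM) and the points of Cpa3 nearly coincide.

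The rich barcodes of genes known for different cells hardly overlapped. No barcode rich in Scgb1a1, Sftpc, Igkc or Cpa3 was rich in a hemoglobin gene in either library, while all 26 Pac1-/- barcodes rich in Hbb-bt were rich in Hbb-bs. So few barcodes were rich that unrelated genes would rarely share one by chance. The lack of overlap therefore does not show that these genes exclude each other. Likeness over barcodes was described by Pearson's r of log2(1 + UMIs per 10000), taking the lower of the libraries, over 10866 and 9495 barcodes that share library and depth. Each gene was compared with genes found in at least 50 barcodes of each library, a minimum that Hbb-bt (43 barcodes in WT) and Sftpc (19 in WT and 44 in Pac1-/-) did not reach themselves. The genes most like a hemoglobin gene were other hemoglobin genes, with the highest value for Hbb-bt and Hba-a2 (0.61 in WT and 0.80 in Pac1-/-). Igkc was most like H2-Aa, H2-Eb1 and H2-Ab1, class II antigen presentation genes of B cells (lower r of 0.37, 0.32 and 0.30), and Sftpc most like Wfdc2, a secreted protein of lung epithelium (0.26). No gene reached 0.2 for Scgb1a1 or Cpa3.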

How the data were processed

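The authors deposited, per library, raw UMI counts per gene and barcode from 10x Genomics 3′ v3.1 libraries, made with Cell Ranger on mm10. The submitters' processing notes name version 6.1.1 and the file header 4.0.0, and the annotation release is not given in the sources used here. Barcodes are those called as cells, so empty droplets were not analysed here and the free RNA level could not be read from them. Doublets were not removed.

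All deposited barcodes were used, without normalization other than CPM of summed UMIs. Observed barcodes were divided by those expected under even spread in proportion to depth, for genes with at least 50 UMIs. Barcodes were thinned to 500 UMIs by a seeded draw. Barcodes were called rich at 10 UMIs of a gene. The members and marker lists were chosen with earlier results of these data known. Named were all 8 members, the 3 genes of each list with the most UMIs, and like genes at r of at least 0.2. Other list genes, among them Alas2, Cd79a, Ms4a1, Mcpt8, Gata2 and Cd200r3, and the genes next to Sftpc in its richest barcode were named after their values were seen. Values of the remaining single list genes are not reported here. The statistics were tested on simulated data, the outcome of which is not reported here. Coordinates and transcripts came from GENCODE on GRCm38, the same build as mm10. Computation used Python 3.11.15, numpy 2.4.6, scipy 1.17.1, pandas 2.3.3, biopython and matplotlib. Alternatives were other scalings, class definitions, a barcode filter and leaving out rich or shared barcodes.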

Additional observations from a re-analysis of the deposited data

How the results depend on the processing

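No paired analysis was possible because there is 1 library per genotype, and leaving out a replicate was not possible for the same reason. Of 19 alternatives for the counts of members, 14 were within 1.5 times of the reported count. The share of all genes past the same line is not given for these alternatives. Leaving out each gene's rich barcodes gave 3 members at least 2-fold higher in Pac1-/- in place of 6, and 0 in place of 7 under 0.5 of the expected barcodes in each library. The second of these changes is largely built in, because the concentrated counts were the ones left out. In that setting Sftpc in WT stood at 1.002 and Scgb1a1 in Pac1-/- at 1.01 of the expected barcodes, and with barcodes of at least 500 genes and at most 10% mitochondrial UMIs Sftpc in WT stood at 1.002, since its 2 rich WT barcodes had under 500 genes.

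Classes cut by UMIs left 3 members in WT and 2 in Pac1-/- at least 2-fold higher in the shallow class. The ratios of Hba-a1, Hba-a2, Hbb-bs and Hbb-bt were then 0.889, 0.590, 0.905 and 0.588 in WT and 0.247, 0.177, 0.257 and 0.117 in Pac1-/-. Of 221 alternative values in all, 109 were counted as the same, 101 as moved in size and 11 as reversed. The direction was thus kept in 210, but shares of barcodes, which are among them, cannot change direction. Scaling by the median ratio left 5 members past 2-fold and the barcode filter 7. Depth limits the low members most: outside rich barcodes Sftpc rests on 17 WT and 46 Pac1-/- UMIs and Hbb-bt on 41 and 84.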

Other observations

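Some genes known for other lung cells were also found in fewer barcodes than expected under even spread. Lyz2 had 149 UMIs in 48 WT barcodes and 469 in 67 Pac1-/- barcodes, at 0.33 and 0.15 of the expected number, with 177 Pac1-/- UMIs in 1 barcode. The platelet chemokine Pf4 had 102 UMIs in WT and 73 in Pac1-/- at 0.63 and 0.54, and its CPM under 500 genes were 20.1 and 44.7 times those at 1000 genes and more. Col3a1 of fibroblasts stood at 0.25 and 0.32, with 56 and 72 UMIs. Unlike the 8 genes, Pf4 was lower in the Pac1-/- library, by a log2 ratio of -0.58.

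The genes named from the alveolar type 1, epithelial, endothelial and T cell lists stood above 0.5 of the expected number of barcodes where they had at least 50 UMIs. Of the alveolar type 1 genes, Ager stood at 0.71 in WT and 0.56 in Pac1-/-, Hopx at 0.90 and 0.85, and Rtkn2 had 19 and 42 UMIs. Of the epithelial genes, the adhesion molecule Epcam stood at 0.88 and 0.82, while Cdh1 had 57 and 21 UMIs and Cldn18 15 and 35. Of the endothelial genes, Pecam1 stood at 0.83 in both libraries, while Cldn5 had 36 and 58 UMIs and Ramp2 32 and 106. Of the T cell genes, Cd3g of the receptor complex stood at 0.75 and 0.60, and the receptor chains Trbc1 and Trbc2 at 0.84 and 0.81 and at 0.90 and 0.87. The lysosomal Cd68 of macrophages stood at 0.98 and 0.91, and Chil3 had 26 and 74 UMIs, at 0.26 in Pac1-/-. The platelet genes Ppbp and Itga2b had 24 UMIs each in WT and 26 and 18 in Pac1-/-, and the fibroblast genes Col1a2 and Dcn had 31 and 17 in WT and 26 and 43 in Pac1-/-. The neutrophil genes Camp and Ltf had no UMI in either library. The ILC2 transcription factor Rora stood at 0.94 and 0.92.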
